A study of Mus musculus with 2 samples.

Results

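The transcription factors described here are 9 genes that act in the mast cell and basophil lineages: Gata1, Gata2, Tal1, Mitf, Cebpa, Spi1, Runx1, Irf8 and Hey1. They were taken by symbol from the 32285 genes of the matrix, and each symbol matched 1 row. Their levels were followed across the mast cell states, the basophils, the progenitor-like cells and the type 2 innate lymphoid cells (ILC2s) of the fetal mouse lung.

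Lungs of fetuses at gestation day 18 were sorted for live cells with CD45 and ST2 on their surface and without lineage markers, and the cells were read with 10x Genomics 5' single-cell RNA sequencing. The lineage panel held CD3e, CD4, CD8A, CD11b, CD11c and TER119 among its antigens, and ST2 is the IL-33 receptor encoded by Il1rl1. Mothers were wild-type C57BL/6J mice whose drinking water held dexamethasone (DEX, a synthetic glucocorticoid) at 1.3 µg/ml or phosphate-buffered saline (PBS) from gestation day 12. Each litter was a pool, of 8 and 9 fetuses in the litters called DEX-1 and DEX-2 and of 5 and 8 in those called PBS-1 and PBS-2, and carried its own hashtag antibody. The litter was the replicate, with n = 2 per group, and all litters shared 1 library. The methods and labels name more mothers per group than 1 legend of the study does, and the hashtags were followed.

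After filtering, 7242 cells carried 1 hashtag, with 18551862 to 24090755 unique molecular identifiers (UMIs) per litter and a median of 8008 per cell. Clusters were named from marker genes, and the 9 genes were kept out of the clustering. Mast-like cells (2461) held 3 large states, led by H19 and Mcpt2 (1065 cells), by Cma1 (913 cells, median 3880 UMIs) or by Mrgprb1 (236 cells), beside smaller dividing, Derl3 and Hspa1a states. Basophil-like cells (385) held all 9 basophil markers in at least 25% of cells. A cluster led by Car1, Gzmb and Scin (318 cells) met 5 of 9 mast and 7 of 9 basophil markers at that limit and stayed unnamed; it is called the Gzmb Scin cluster. Progenitor-like cells (225) met 4 of 9 progenitor markers (Cd34, Mpo, Prtn3 and Myb), and ILC2-like cells (2081) met 9 of 9 ILC2 markers. Unnamed clusters held 8.38% of cells.

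GATA2 is needed for both mast cells and basophils, and its relative GATA1 also drives red cell, platelet and eosinophil genes. TAL1 binds DNA with GATA factors in a shared complex. MITF supports mast cell genes such as Kit, whereas C/EBPα (Cebpa) supports the basophil fate, and the pair is known to oppose each other. PU.1 (Spi1) and RUNX1 act early in many blood lineages, IRF8 directs monocyte and dendritic cell fates and acts in granulocyte progenitors, and HEY1 is a repressor induced by Notch. Levels are given as CPM, the UMIs of a gene for every 1000000 UMIs of that cell state in that litter, without further scaling. Unless said otherwise, a run of 4 values gives DEX-1, DEX-2, PBS-1 and PBS-2. Reads were counted near the 5' end, so a level was compared between states and not between genes. States are clusters of the same cells, so differences between them are descriptions without a test. Overlap refers to the ranges over litters, so a state that overlaps with another can still be higher within every litter.

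Because GATA factors bind short, known DNA words, the 250 bases upstream of the annotated start sites were searched on both strands for GATA with A or T before it and A or G after it, the usual GATA word. RefSeq (GRCm38.p6) gave 13 start sites for 7 of the 9 genes, all but Spi1 and Hey1. A match was found at 3 of them, and 26.5% of 32851 promoters of the same length held one. The sites with a match and that of Gata1, which had none, are printed here 5' to 3' with the matches in capitals. Mitf start site 2 lies at chr6:97929567-97929816 and start site 3 at chr6:97991533-97991782, both on the plus strand. The Tal1 window lies at chr4:115056176-115056425 on the plus strand, and that of Gata1 at chrX:7967911-7968160 on the minus strand.
Mitf start site 2: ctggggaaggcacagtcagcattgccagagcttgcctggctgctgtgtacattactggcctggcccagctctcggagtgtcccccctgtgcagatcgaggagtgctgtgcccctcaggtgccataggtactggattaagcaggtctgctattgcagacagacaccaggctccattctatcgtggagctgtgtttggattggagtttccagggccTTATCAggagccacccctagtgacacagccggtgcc
Mitf start site 3: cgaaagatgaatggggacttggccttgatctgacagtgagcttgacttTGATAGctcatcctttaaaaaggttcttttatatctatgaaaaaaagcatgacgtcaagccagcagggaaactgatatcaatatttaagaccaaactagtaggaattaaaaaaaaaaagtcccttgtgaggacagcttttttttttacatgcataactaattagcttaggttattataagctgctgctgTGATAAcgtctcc
Tal1 start site 1: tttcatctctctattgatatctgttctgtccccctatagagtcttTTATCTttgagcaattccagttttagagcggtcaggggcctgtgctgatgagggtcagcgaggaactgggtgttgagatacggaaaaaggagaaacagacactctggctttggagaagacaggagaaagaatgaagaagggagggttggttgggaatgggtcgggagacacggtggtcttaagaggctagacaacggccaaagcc
Gata1: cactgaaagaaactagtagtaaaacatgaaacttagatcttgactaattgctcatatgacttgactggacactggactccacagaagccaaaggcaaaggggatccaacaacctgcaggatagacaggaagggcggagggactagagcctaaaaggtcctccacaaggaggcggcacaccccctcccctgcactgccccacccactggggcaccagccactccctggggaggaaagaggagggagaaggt
In Mitf start site 3 the 2 matches began 202 and 13 bases before the start, in Mitf start site 2 the match began 36 bases before it, and in Tal1 start site 1 it began 205 bases before it. A match of letters is not a measured binding site.

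Gata2 (ENSMUSG00000015053, chromosome 6, 88193891 to 88207032, GRCm38) was highest in basophil-like cells and in the H19 mast-like state. Basophil-like cells measured 1223, 1146, 1348 and 1319 CPM (1259 ± 92.5, mean ± SD, n = 4 litters). The H19 mast-like state measured 1012, 967, 1387 and 1288 CPM, which overlapped with the basophil-like range. Mrgprb1 mast-like cells (985 ± 69.0 CPM) lay above the Gzmb Scin cluster (821 ± 106 CPM) without overlap, and the Cma1 mast-like state was the lowest of the 3 large mast-like states, at 634 ± 125 CPM, overlapping with the Gzmb Scin cluster. Within each litter the Cma1 state was below that cluster (528, 524, 739 and 745 against 810, 677, 913 and 885 CPM). Progenitor-like cells were far lower, at 199, 125, 128 and 156 CPM, and ILC2-like cells were at 3.19, 7.11, 3.30 and 1.91 CPM. After thinning every cell to 2000 UMIs, a Gata2 UMI was found in 83.1% of basophil-like, 72.8% of mast-like and 1.96% of B-like cells, where none is expected. The unthinned shares were 95.3%, 85.4% and 2.51%, at median depths of 6381, 6616 and 3528 UMIs.

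Gata1 (ENSMUSG00000031162, chromosome X, 7959260 to 7978071) had overlapping levels in the mast-like and basophil-like states and was highest in progenitor-like cells. Progenitor-like cells measured 146, 135, 176 and 138 CPM, and no litter overlapped with the next state. Next came the Mrgprb1 mast-like state (101 ± 19.9 CPM), the H19 mast-like state (85.2 ± 18.0), basophil-like cells (84.8 ± 19.5), the Gzmb Scin cluster (84.0 ± 8.93) and the Cma1 mast-like state (76.6 ± 21.5). The litter ranges of these 5 overlapped, each with its neighbour in this order. Within each litter the Mrgprb1 state was above the Cma1 state (74.3, 99.4, 122 and 108 against 67.4, 51.0, 98.1 and 90.1 CPM). ILC2-like cells lay apart below them, at 7.22, 8.69, 12.4 and 10.5 CPM. The thinned share of cells with a Gata1 UMI was 25.0% in progenitor-like, 14.8% in mast-like and 14.1% in basophil-like cells (84.4%, 39.5% and 38.4% unthinned), and no B-like cell held one. Among the progenitor-like subclusters, only that led by Mpo met the naming limits for progenitors by itself. Its thinned share was 16.2%, against 26.9% to 30.4% in the unnamed subclusters led by Pf4, Ermap and Cxcl10.

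Tal1 (ENSMUSG00000028717, chromosome 4, 115056426 to 115071755) was higher in mast-like than in basophil-like cells. The Mrgprb1 mast-like state measured 66.6, 43.3, 53.4 and 47.0 CPM. Progenitor-like cells (35.5 ± 9.73 CPM), the H19 mast-like state (34.9 ± 1.85), the Gzmb Scin cluster (29.8 ± 5.79) and the Cma1 mast-like state (29.5 ± 7.94) overlapped in sequence. Basophil-like cells were the lowest of this series, at 21.6, 9.91, 15.9 and 18.7 CPM, and overlapped with the Cma1 state next above them. In ILC2-like cells Tal1 was at 0.415 CPM, and 6 of 2081 cells held a UMI.

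**Figure D1:**
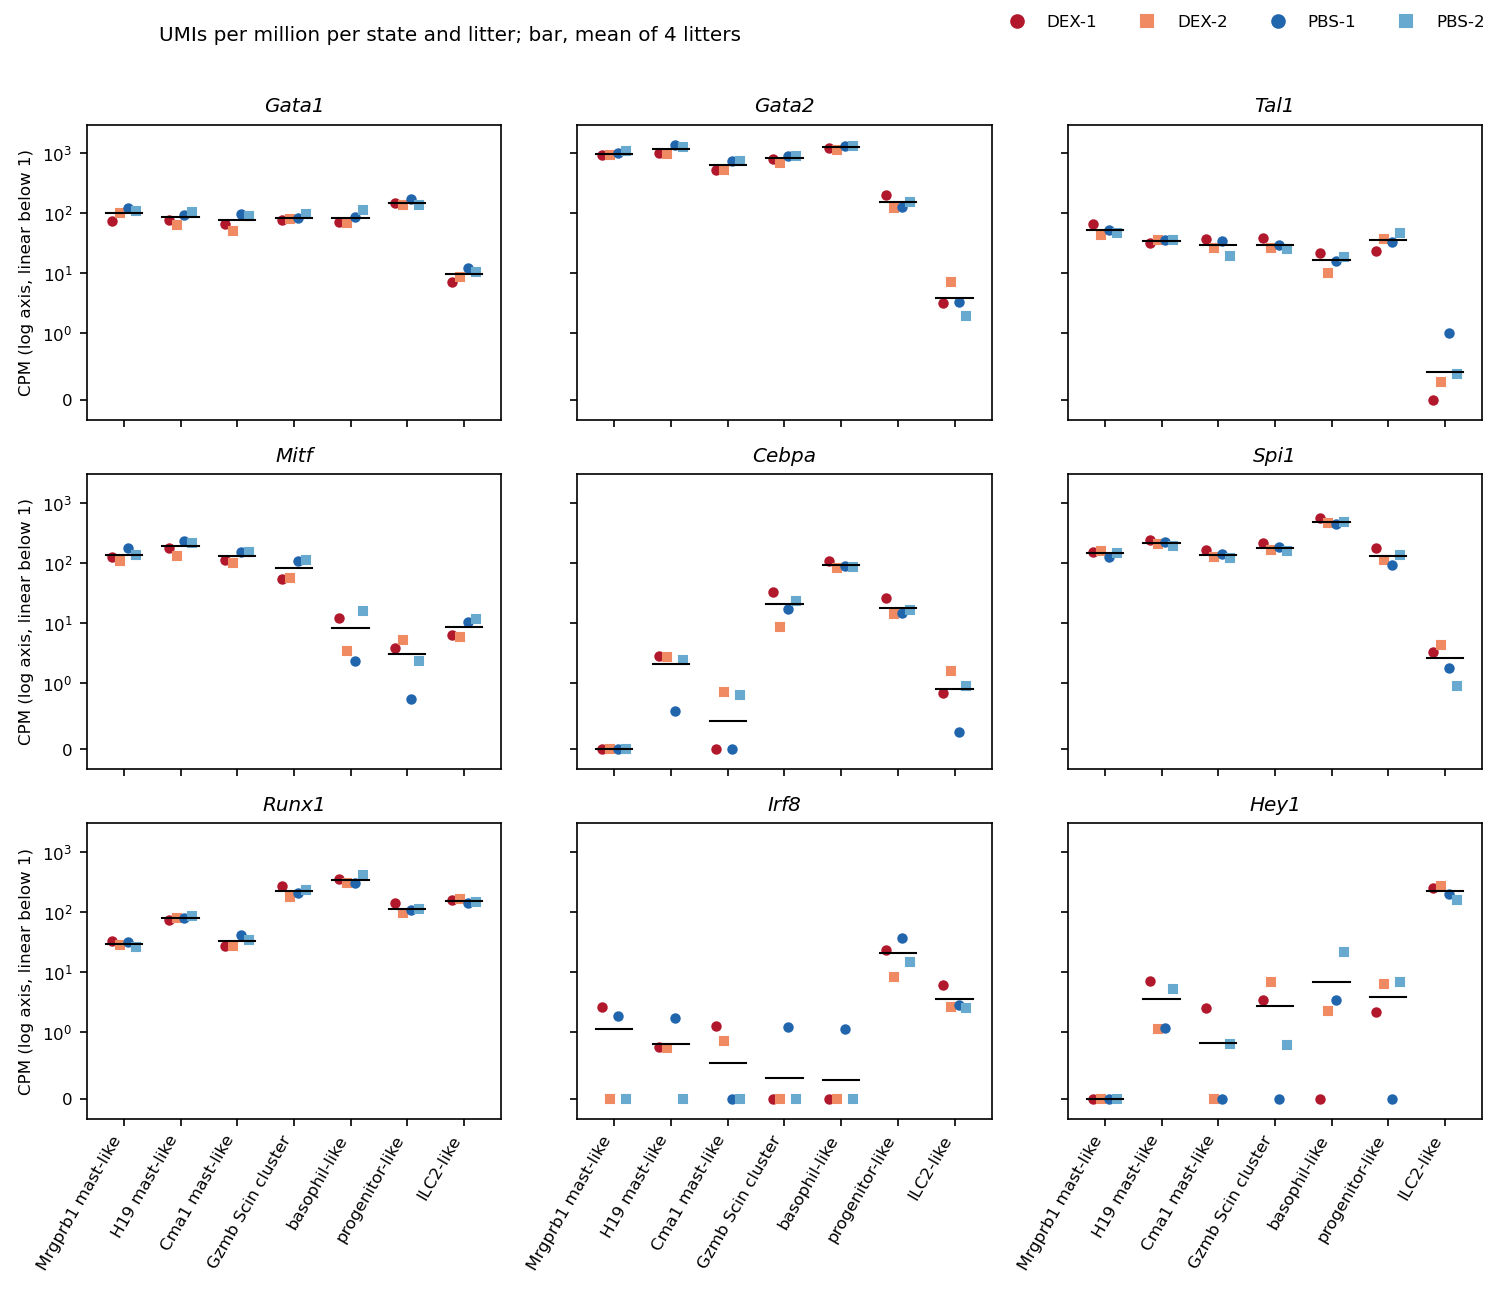
Level of each of the 9 genes in 7 cell states, as CPM of the state (vertical axis, logarithmic above 1 CPM and linear below), with 1 point per litter and a bar for the mean of 4 litters. Mitf and Cebpa stand in opposite states (Mitf 186 CPM in H19 mast-like and 8.23 in basophil-like cells, Cebpa 2.07 and 90.0 CPM), and Hey1 reaches 221 CPM in ILC2-like cells.

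Mitf and Cebpa divided the mast-like from the basophil-like cells. Mitf (ENSMUSG00000035158, chromosome 6, 97807052 to 98021349) measured 173, 131, 232 and 210 CPM in the H19 mast-like state and 123, 107, 175 and 134 CPM in the Mrgprb1 state. The Cma1 state was at 128 ± 27.2 CPM and the Gzmb Scin cluster at 81.7 ± 30.9 CPM, again overlapping with the neighbour above. Within each litter the Gzmb Scin cluster was below the Cma1 state (53.7, 56.3, 108 and 109 against 112, 97.6, 152 and 150 CPM). Basophil-like cells measured 11.8, 3.30, 2.27 and 15.6 CPM, as low as ILC2-like cells (8.41 ± 2.84 CPM). The thinned share of cells with a Mitf UMI was 26.0% in mast-like cells, 1.04% in basophil-like cells and 0.761% in B-like cells (57.3%, 3.38% and 1.51% unthinned). At this depth the basophil-like share was close to that of the B-like cells. A processed pseudogene, Gm15531, overlaps Mitf on the other strand.

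Cebpa (ENSMUSG00000034957, chromosome 7, 35119293 to 35121928) measured 108, 80.4, 87.5 and 84.2 CPM in basophil-like cells. Mrgprb1 mast-like cells had no Cebpa UMI in any litter (0 of 236 cells, which allows a share of up to 1.27%), and the Cma1 and H19 states were at 0.421 and 2.07 CPM. The Gzmb Scin cluster took a middle place, at 32.9, 8.37, 17.0 and 22.7 CPM, and overlapped with progenitor-like cells, at 26.2, 14.0, 14.3 and 16.1 CPM. Thinned shares were 14.8% of basophil-like, 0.252% of mast-like and 0.499% of B-like cells (39.5%, 1.18% and 1.01% unthinned), so the mast-like share did not exceed that of cells that should lack the gene. Epithelial-like cells, where C/EBPα is also a known regulator, held 136 ± 10.5 CPM. A small unnamed cluster of dividing cells led by Mpo, Prtn3 and Mcpt8 (57 cells, all 9 basophil markers) resembled basophil-like cells in both genes, with Cebpa at 108 ± 38.8 and Mitf at 0.656 CPM. It held 6, 26, 15 and 10 cells in the 4 litters. An antisense gene, Gm45091, overlaps Cebpa.

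Spi1 (ENSMUSG00000002111, chromosome 2, 91082390 to 91115756) was highest in basophil-like cells, at 565, 457, 443 and 477 CPM, apart from every litter of the H19 mast-like state (239, 204, 222 and 188 CPM). The Gzmb Scin cluster followed at 179 ± 25.5 CPM, then the Mrgprb1 state at 144 ± 14.1, the Cma1 state at 136 ± 19.1 and progenitor-like cells at 128 ± 36.0 CPM, each overlapping with its neighbour. ILC2-like cells were at 2.53 ± 1.45 CPM. A Spi1 UMI was found after thinning in 61.1% of basophil-like and 27.4% of mast-like cells, against 3.52% of epithelial-like and 8.65% of mesenchymal-like cells (90.9%, 59.2%, 13.9% and 27.4% unthinned).

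Runx1 (ENSMUSG00000022952, chromosome 16, 92601466 to 92826149) gave the clearest ladder of levels. Basophil-like cells were at 342 ± 53.5 CPM with their highest litter, PBS-2, at 415, the Gzmb Scin cluster at 271, 181, 209 and 233 CPM, ILC2-like cells at 158, 166, 143 and 147 CPM and progenitor-like cells at 140, 94.7, 107 and 113 CPM. The H19 mast-like state came next at 74.3, 80.1, 78.7 and 84.3 CPM, and each of these steps separated all litters of one state from all litters of the next. The step from ILC2-like to progenitor-like cells was narrow, with 143 CPM next to 140 CPM. The ILC2-like level includes a small Pde7b subcluster (32 cells), described at the end, where Runx1 was far higher. Its part in this step was not tested. The Cma1 state (32.6 ± 7.06 CPM) and the Mrgprb1 state (33.3, 28.0, 31.3 and 25.8 CPM) closed the order and overlapped with each other. Spi1 and Runx1 were thus both higher in the H19 than in the Mrgprb1 mast-like state. An antisense gene, Gm26626, overlaps Runx1.

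Irf8 (ENSMUSG00000041515, chromosome 8, 120736358 to 120756694) was nearly absent from mast-like and basophil-like states, whose means lay between 0.284 and 1.10 CPM. Progenitor-like cells measured 23.5, 8.26, 36.8 and 14.9 CPM (20.9 ± 12.3), and their mean was 6.67 CPM when hashtags were called by a ratio rule. Within them Irf8 lay in the Mpo subcluster (68 cells), at 64.6, 26.2, 325 and 47.9 CPM, while the other 3 subclusters were at 0 to 0.962 CPM. In that subcluster 17 of 68 cells held a UMI (25.0%, 11.1% thinned), against 2.95% of epithelial-like, 10.1% of endothelial-like and 18.4% of mesenchymal-like cells (0.310%, 2.01% and 4.93% thinned). Mesenchymal-like cells held 25.4 ± 1.62 CPM, above the mean of the progenitor-like cells. The 325 CPM of PBS-1 rested on 9 cells. B-like cells, a lineage where Irf8 is well known, held 371 ± 44.9 CPM. Gm20388 overlaps Irf8 on the same strand, so UMIs of the pair may have been split.

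Hey1 (ENSMUSG00000040289, chromosome 3, 8663359 to 8667256) belonged to the ILC2-like cells among the states compared. It measured 253 and 270 CPM in the DEX litters and 204 and 157 CPM in the PBS litters. Every mast-like, basophil-like and progenitor-like state had a mean of at most 6.86 CPM, and Mrgprb1 mast-like cells had no UMI. Within ILC2-like cells the Calca subcluster (321 ± 100 CPM) and the Cd7 subcluster (292 ± 34.0 CPM) were the highest. Endothelial-like cells, in which Notch signalling is a known regulator, held 139 ± 42.7 CPM. Thinned shares were 31.1% of ILC2-like and 0.996% of B-like cells (58.0% and 2.51% unthinned).

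Set side by side, mast-like and basophil-like cells differed in most of these factors. Of the 7 members with a mean over 5 CPM, Mitf and Tal1 were higher in all litters of mast-like cells, Gata2, Cebpa, Spi1 and Runx1 were lower, and Gata1 overlapped (84.4 ± 17.5 against 84.8 ± 19.5 CPM). Over all 9112 genes above that level, 38.2% were higher in mast-like cells without overlap and 14.8% were lower. Partners of GATA and TAL1 went both ways. The zinc-finger repressor genes Gfi1 and Gfi1b exchanged places, with Gfi1 at 66.0 ± 9.73 CPM in mast-like and 7.63 ± 2.95 in basophil-like cells and Gfi1b at 0.521 ± 0.396 and 13.1 ± 3.72 CPM. Lyl1, the closest relative of Tal1, was higher in mast-like cells (41.8 ± 9.29 against 13.6 ± 5.84 CPM), and Nfe2, a platelet and red cell factor, was higher in basophil-like cells (116 ± 9.97 against 5.50 ± 2.23 CPM). In the list of C/EBP and STAT factors, 0 of 8 genes were higher and 3 lower in mast-like cells, among them Cebpb (1438 ± 230 against 4639 ± 227 CPM). Among the receptors and granule genes, 9 of 16 were higher and 5 lower. The receptor gene Kit was at 1178 ± 103 against 67.4 ± 35.8 CPM, whereas the high-affinity IgE receptor genes Fcer1a and Ms4a2 were higher in basophil-like cells (130 ± 32.1 against 70.3 ± 20.5 and 367 ± 46.0 against 95.6 ± 14.7 CPM). Several of these genes named the clusters, so their side follows from the naming.

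Between the H19 and the Mrgprb1 mast-like states, Spi1 and Runx1 were higher in all litters of the H19 state and Tal1 was lower, of 6 members over 5 CPM. Of all 9070 genes compared, 18.8% were higher in the H19 state and 6.47% lower. The litter ranges of Gata1, Gata2 and Mitf overlapped. Within each litter Gata2 and Mitf were higher in the H19 state, while Gata1 was higher there only in DEX-1. Gata2 was at 1012, 967, 1387 and 1288 CPM in the H19 state against 937, 928, 997 and 1078 CPM. The Notch family was among the lists that leaned to the H19 state, with 3 of 6 genes higher and none lower (Notch1, Notch2 and Rbpj, the DNA-binding partner of Notch, at 33.8 ± 4.35 against 11.4 ± 6.74 CPM). Meis1, an early blood factor, was higher too (98.4 ± 26.4 against 30.3 ± 10.7 CPM), and Myb was lower (46.3 ± 5.74 against 104 ± 25.9 CPM). In the H19 state 10 of 16 receptor and granule genes were lower, for example the proteases Mcpt4 (1024 ± 327 against 9890 ± 2792 CPM) and Cpa3 (8375 ± 428 against 16808 ± 670 CPM). Mcpt4 was among the leading genes of the Mrgprb1 state. Receptor and granule genes other than Il1rl1 were kept in the clustering, so their side follows in part from it.

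The members that most resembled each other across the 5 mast and basophil states and 4 litters (20 points, sharing litters and depth) were Cebpa and Runx1, with a Pearson r of 0.96 on log2(CPM + 1). Mitf ran against Cebpa (r = -0.82) and Spi1 (r = -0.83), and with Tal1 (r = 0.76). Among 5521 genes with a mean of at least 20 CPM, the genes nearest to Mitf were Galc, Kit and Cd34 (each r = 0.98), those nearest to Cebpa were Rps23, Anxa1 and Ccr2 (each 0.98), and those nearest to Spi1 included AB124611 and Ncf1 (each 0.97). Runx1 had Palm, Gpi1 and Bin2 (each 0.98), Tal1 had Chd3 (0.91), Fnip1 (0.89) and Elovl7 (0.88), and Gata2 had Stk17b (0.88), Mark2 (0.86) and Wsb1 (0.85). Gata1, whose state means lay between 76.6 and 101 CPM, had no close match (Zgpat 0.65, Rapgef6 0.62 and Cnot6l 0.62).

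The balance of Gata1 and Gata2 set the progenitor-like cells apart. Summed over litters, mast-like cells held 1564 Gata1 and 17307 Gata2 UMIs, a ratio of 0.0904, and the ratio in single litters lay between 0.0829 and 0.0976. Basophil-like cells were at 0.0644 and the Gzmb Scin cluster at 0.105. Progenitor-like cells held 840 Gata1 and 874 Gata2 UMIs, a ratio of 0.961. The ratio went from 0.549 in their Mpo subcluster through 0.755 in the Cxcl10 and 0.951 in the Pf4 subcluster to 1.93 in the Ermap subcluster, whose leading genes held the red cell gene Ermap and the heme enzyme gene Cpox. By litter the first 3 overlapped with their neighbours (0.444 to 0.786, 0.656 to 0.944 and 0.774 to 1.21), and the Ermap subcluster lay above them, at 1.23 to 3.22. Gata1 was at 97.4 ± 15.7 CPM in the Mpo subcluster and 169 ± 34.0 CPM in the Ermap subcluster. The Mpo subcluster met the naming limits for progenitors by itself, and the Cxcl10, Pf4 and Ermap subclusters did not. The 7 erythroid markers together reached 0 to 39.2 CPM per litter in these subclusters. The Pf4 subcluster (33 cells), which held the platelet markers Pf4, Itga2b and Gp9 in at least 25% of cells, had Gata1 at 150 ± 33.3 and Tal1 at 40.2 ± 7.75 CPM. Itga2b and Gp9 reached 25% of cells in the Mpo, Cxcl10 and Ermap subclusters too, and Pf4 did not. Spi1 was highest in the Mpo subcluster (253 ± 64.3 CPM) and lowest in the Ermap subcluster (48.7 ± 23.7 CPM), and Cebpa was also highest in the former (35.2 ± 15.7 CPM).

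**Figure D2:**
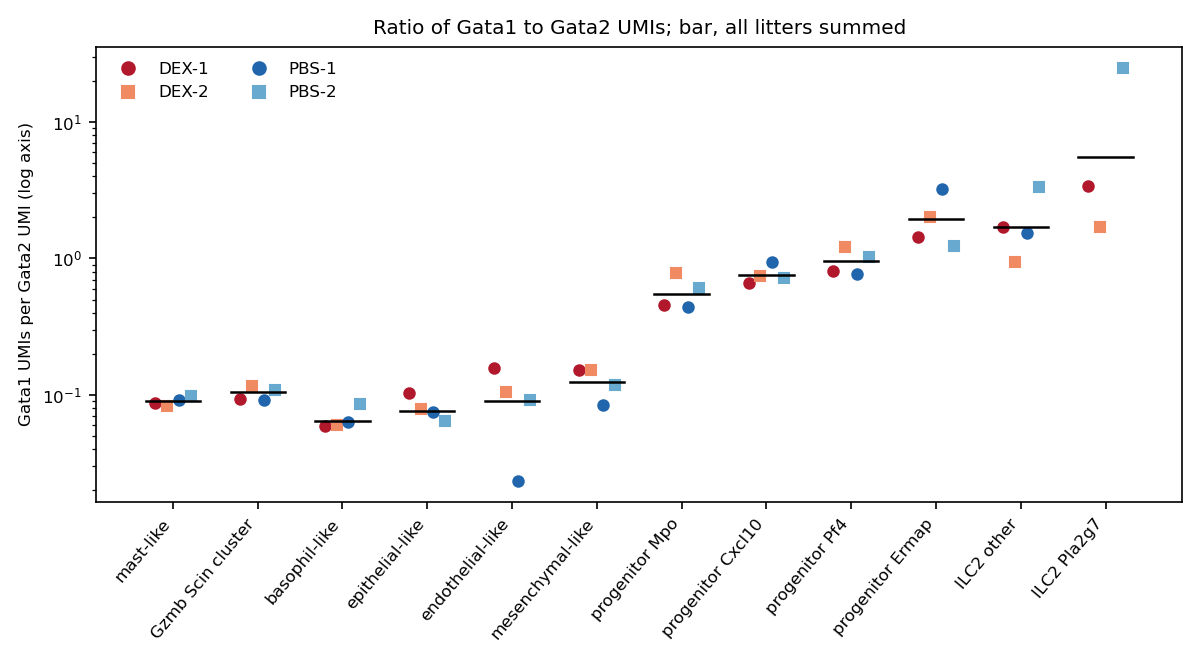
Gata1 UMIs per Gata2 UMI (vertical axis, logarithmic) in 12 groups of cells, with 1 point per litter and a bar for all litters summed. Mast-like, basophil-like, epithelial-like, endothelial-like and mesenchymal-like cells and the Gzmb Scin cluster lie at 0.0644 to 0.125, progenitor-like subclusters at 0.549 to 1.93, and the ILC2-like Pla2g7 subcluster at 5.50; in that subcluster PBS-1 had no Gata2 UMI and no point is drawn.

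Gata1 UMIs were also found in ILC2-like cells, which had little Gata2, Tal1, Cebpa or Spi1. A total of 132 of 2081 ILC2-like cells held one (6.34%, exact 95% binomial interval 5.33 to 7.48%), with 28 and 24 cells in the DEX litters and 40 in either PBS litter. Of these cells 100 held 1 UMI, 26 held 2 and 6 held at least 3, for 171 UMIs in all. Among B-like cells 0 of 199 held a Gata1 UMI, which allows a share of up to 1.51%, at a median of 3528 UMIs against 7164 in ILC2-like cells. Thinned to 2000 UMIs, the shares were 2.20% of ILC2-like cells, 1.29% of epithelial-like cells and 0 of B-like cells (26, 4 and 14 shallower cells were left out). Endothelial-like cells were at 1.93% and mesenchymal-like cells at 3.83% (10.4% and 17.4% unthinned), so the share over all ILC2-like cells lay within that of other cell types. Intervals and limits cover counting error only.

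The Gata1 UMIs of the ILC2-like cells gathered in 1 of their subclusters, led by Pla2g7, Atp4a, Slc38a5 and Hdc (208 cells). It held 9.995% of the ILC2-like cells and 6.80% of their UMIs, but 88 of the 171 Gata1 UMIs (51.5%). Its Gata1 level was 64.8, 86.1, 69.7 and 76.7 CPM, within the range of the basophil-like and mast-like states. The ILC2-like cells outside it were at 3.82, 4.44, 5.68 and 6.11 CPM. In the Pla2g7 subcluster 63 of 208 cells held a Gata1 UMI (30.3%, 24.1 to 37.0%; 13.4% thinned), against 3.68% of the other ILC2-like cells (0.964% thinned). The latter share lay between that of B-like cells (0 of 199) and that of epithelial-like cells (6.36%, 1.29% thinned, median 17697.5 UMIs). Of the Gata1-holding cells, 25 of 28 epithelial-like and 3 of 69 other ILC2-like cells held Gata2. Whether the other ILC2-like cells express Gata1 was not tested. The thinned share of the Pla2g7 subcluster was above the 3.83% of mesenchymal-like cells. The subcluster was looked at after the place of the Gata1 UMIs had been seen.

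**Figure D3:**
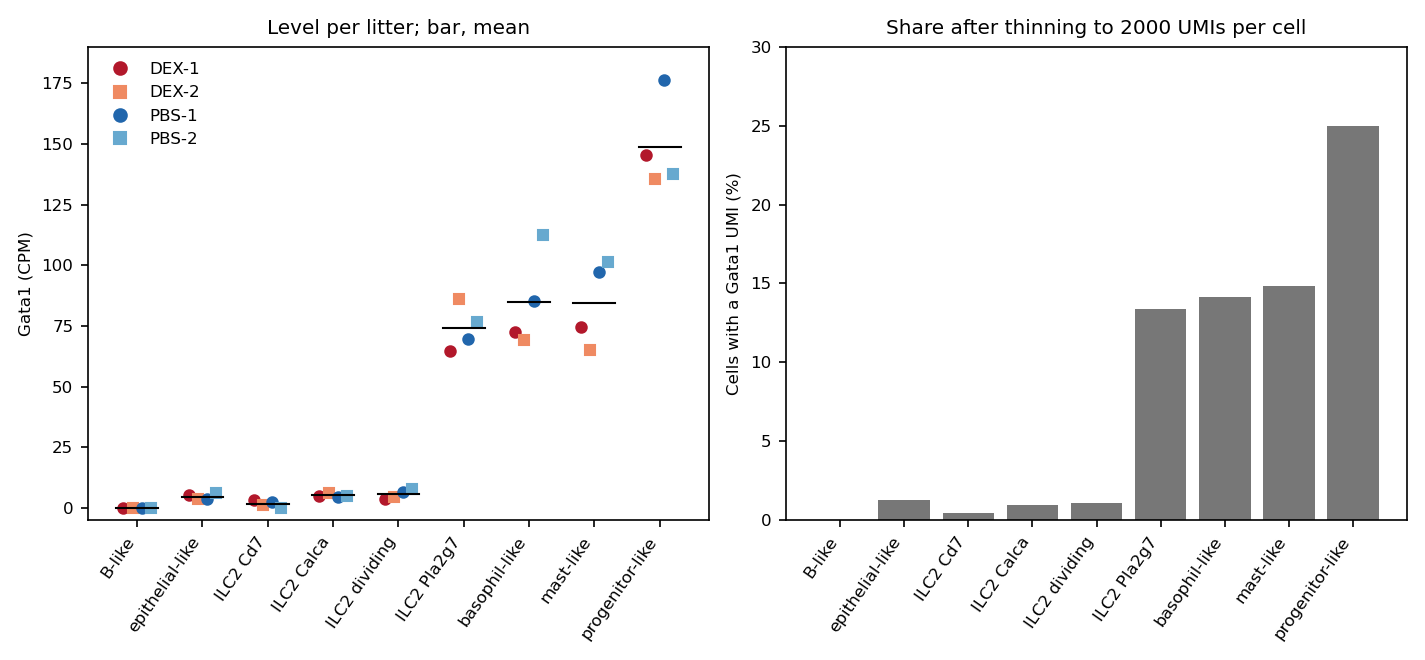
Left, Gata1 level (CPM) per litter with a bar for the mean; right, share of cells with a Gata1 UMI after thinning to 2000 UMIs per cell. The ILC2-like Pla2g7 subcluster (74.3 ± 9.24 CPM, 13.4% of cells) stands with basophil-like and mast-like cells, and the other ILC2-like subclusters drawn stand with epithelial-like cells.

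The Pla2g7 subcluster kept the ILC2 markers. All 9 (Gata3, Rora, Il7r, Il2ra, Icos, Thy1, Cxcr6, Arg1 and Areg) were found in at least 25% of its cells, summing to 3794 to 5159 CPM per litter. It failed the naming limits by itself, since the mast cell gene Cpa3 was among its 10 leading genes. The Calca subcluster failed them too, with the epithelial gene Epcam among its leading genes. Of the 9 mast markers, Kit, Hs3st1 and Cpa3 reached 25% of its cells, and their sum was 2083 to 4721 CPM per litter, against 1292 to 1586 CPM over all ILC2-like cells and 45490 to 54644 CPM in mast-like cells. Fcer1a and Mcpt8 were at 0, and Mcpt4 was at 1.72 ± 2.01 CPM. Of 6 members over 5 CPM, Gata1, Spi1 (53.4, 40.5, 14.4 and 3.07 CPM) and Runx1 (205 ± 30.5 against 149 ± 14.0 CPM) were higher in all its litters than in the other ILC2-like cells and none was lower. For Spi1 this rested in PBS-2 on 1 UMI of 326035, and only 16 of the 208 cells held a Spi1 UMI. Over all 9264 genes compared, 11.3% were higher and 14.4% lower. Of 11 receptor and granule genes, 6 were higher and none lower, among them Hdc, the histamine-forming enzyme (646 ± 243 against 45.6 ± 18.1 CPM), Slc18a2, which loads amines into vesicles (38.4 ± 22.2 against 5.66 ± 1.07 CPM), and the cytokine gene Il4 (230 ± 96.7 against 93.9 ± 17.4 CPM). Hdc and Cpa3 were among the 10 leading genes of the subcluster. Receptor and granule genes other than Il1rl1 were kept in the clustering, so their side follows in part from it. Gata1 had drawn attention to the subcluster, so its side is not independent. Gata2 overlapped with the other ILC2-like cells, at 19.1, 50.7, 0 and 3.07 CPM, and like Spi1 it was highest in the DEX litters. Tal1 had 0 UMIs.

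Gata2 was rare in the Gata1-holding ILC2-like cells. A Gata2 UMI was held by 4 of 132 of them (3.03%, exact 95% interval 0.832 to 7.58%) and by 2.21% of the ILC2-like cells without Gata1, against 924 of 972 Gata1-holding mast-like cells (95.1%). Hashtag doublets, barcodes that join cells of different litters, were set beside them. Of 90 doublets with both Gata1 and Gata3, 82 held Gata2 (91.1%, 83.2 to 96.1%), at a median of 21737.5 UMIs against 6831 in the Gata1-holding ILC2-like cells. The Pla2g7 subcluster had 88 Gata1 and 16 Gata2 UMIs, a ratio of 5.50, and the other ILC2-like cells had 83 and 49, a ratio of 1.69. Mast-like cells were at 0.0904. Free RNA can be read from the epithelial gene Sftpc, which was found in 76.5% of the Gata1-holding and 77.3% of the other ILC2-like cells. It was in 76.9% of B-like cells too, and the part of free RNA in the Gata1 UMIs was not tested. Doublets within a litter share a hashtag and were not removed, and their part in these Gata1 UMIs was not tested.

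Gata3, the defining ILC2 factor, was found in 83.3% of the Gata1-holding cells and 88.7% of the other ILC2-like cells, and Rora in 99.2% and 96.3%. At median depths of 6831 and 7192 UMIs, Hdc was found more often in the Gata1-holding cells (40.9% against 19.3%), as were Cpa3 (25.0% against 13.6%) and Il4 (54.5% against 43.2%), and Hey1 was less frequent (44.7% against 58.9%). Within the Pla2g7 subcluster, cells with and without a Gata1 UMI had Hdc in 60.3% and 63.4% and Cpa3 in 28.6% and 34.5%. The mast cell proteases Cma1 (11.4% against 14.3%) and Tpsb2 (7.58% against 8.21%) were not more frequent in Gata1-holding than in other ILC2-like cells, and within the Pla2g7 subcluster they were in 7.94% against 18.6% and in 4.76% against 12.4%. These shares are over cells pooled from the litters and carry no test. Of the 601 UMIs of the hemoglobin gene Hbb-bs in Gata1-holding cells, 591 were in 1 cell, which held 1 Gata1 UMI.

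The comparison of DEX with PBS litters asks whether maternal glucocorticoid exposure changed these factors in the fetal lung. In mast-like cells Gata1, Gata2 and Mitf were each lower in both DEX litters than in both PBS litters, but no member passed the test. Gata1 was at 74.4 and 65.0 CPM in DEX litters and 97.1 and 101 CPM in PBS litters, with a log2 fold change of -0.50 ± 0.12 (SE, edgeR adjusted p = 0.6458). For Gata2 the values were 854 and 784 against 1051 and 1037 CPM (-0.34 ± 0.11, edgeR adjusted p = 0.8311), and for Mitf 144 and 109 against 180 and 173 CPM (-0.47 ± 0.15, edgeR adjusted p = 0.8311). Spi1 (0.18 ± 0.14), Runx1 (0.01 ± 0.12) and Tal1 (0.02 ± 0.15) differed less. Of all genes, 18.9% had both DEX litters below both PBS litters. By edgeR 0 of 10838 genes were called (0.0%), 511 had an unadjusted p under 0.05, and DESeq2 called 6. Without DEX-1, Gata1 (-0.60, edgeR adjusted p = 0.003993) and Mitf (-0.68, edgeR adjusted p = 0.0005909) passed; over the 10 alternatives their adjusted p reached from these values to 1.0.

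The same order of litters appeared in each large mast-like state, which are parts of the same cells. In the H19 state the log2 fold changes were -0.46 ± 0.16 for Gata1, -0.40 ± 0.12 for Gata2 and -0.51 ± 0.16 for Mitf (edgeR adjusted p = 0.5905, 0.4297 and 0.4906), where 20.4% of all genes had both DEX litters below both PBS litters. In the Cma1 state they were -0.65 ± 0.20, -0.46 ± 0.12 and -0.50 ± 0.16 (edgeR adjusted p = 0.5134, 0.3298 and 0.6), with a background of 21.2%. In the Mrgprb1 state they were -0.44 ± 0.24, -0.18 ± 0.15 and -0.46 ± 0.22 (edgeR adjusted p = 0.8642, 0.8862 and 0.8303), with a background of 16.9%. None of these passed. Few genes were called in any state, 1 in H19 (0.0104%, the fall of Gm32647), 6 in Cma1 (0.0823%, among them a fall of the kinase gene Pim3 by 1.28 and rises of Osbpl6, Cenpa and Pde10a) and 3 in Mrgprb1 cells (0.0616%, falls of Ptgs2, Gm9758 and Ccl1 by 2.39, 1.56 and 1.28 on the log2 scale).

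**Figure D4:**
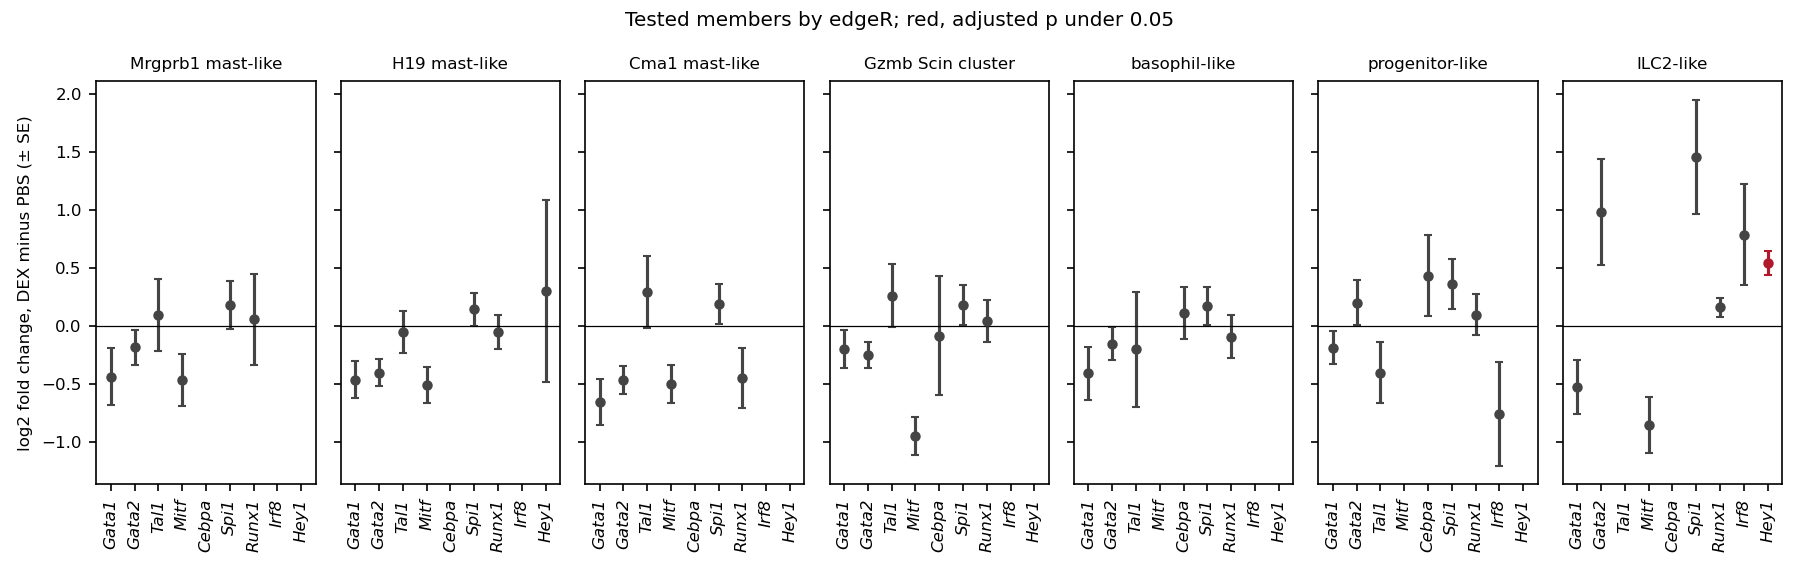
Log2 fold change of DEX over PBS litters (vertical axis, ± SE from edgeR, 2 litters per group) for each member tested in 7 cell states; a gene left out by the filter on low counts has no point. Hey1 in ILC2-like cells (0.55 ± 0.10, red) is the only call, and Gata1, Gata2 and Mitf lie below 0 in the 3 mast-like states and the Gzmb Scin cluster.

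In the Gzmb Scin cluster the gap in Mitf was wider than in the mast-like states, at 53.7 and 56.3 CPM in DEX litters and 108 and 109 CPM in PBS litters. Its log2 fold change was -0.95 ± 0.16 (edgeR adjusted p = 0.3979) and was not called, as were 0 of 8336 genes (0.0%; 293 had an unadjusted p under 0.05, and DESeq2 called 0). It passed without DEX-2 (-0.99, edgeR adjusted p = 0.01136) and with no filter on low counts (-0.94, edgeR adjusted p = 0.002276), and over the 10 alternatives the adjusted p reached from the latter to 1.0. Gata1 (-0.20 ± 0.16) and Gata2 (-0.25 ± 0.11) were also lower in both DEX litters, as were 17.9% of all genes. In basophil-like cells Gata1 (-0.40 ± 0.23) and Gata2 (-0.15 ± 0.14) were lower in both DEX litters, against 17.1% of all genes, with an edgeR adjusted p of 0.9993 for each tested member. The 1 of 6031 genes called there (0.0166%) was the mast cell protease Cma1, higher in DEX litters (392 and 560 against 50.6 and 101 TMM-scaled CPM, 2.81 ± 0.28, edgeR adjusted p = 0.002266); the 9 mast markers summed to 2179 to 3448 CPM over these litters and their part in the result was not tested. With hashtags called by a ratio rule, or with cells of up to 10% mitochondrial UMIs kept, edgeR called 0 genes in basophil-like cells (248 and 191 at an unadjusted p under 0.05), and DESeq2 called 1. In progenitor-like cells 7 members were tested and none was called, and 1 of 8582 genes passed (0.0117%), a rise of Lyz2 by 2.07 ± 0.24. By edgeR 0 genes were called there under either of those alternatives (409 and 466 at an unadjusted p under 0.05), and DESeq2 called 2.

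In ILC2-like cells Hey1 rose in DEX litters. It was at 253 and 270 CPM in DEX litters and 204 and 157 CPM in PBS litters, with a log2 fold change of 0.55 ± 0.10 (edgeR adjusted p = 0.009264), and 263 of 10641 genes were called (2.47%). The change was 0.37 to 0.73 over 10 alternatives, lowest without PBS-2 and highest without PBS-1, and it passed in all 10 (adjusted p between 3.146e-10 and 0.01105). Hey1 is on a list that the study chose on these same cells, so its direction is not independent evidence. Outside the Pla2g7 subcluster the values were 252 and 280 against 201 and 160 CPM. Gata1 (-0.52 ± 0.23, edgeR adjusted p = 0.3727) and Mitf (-0.85 ± 0.24, edgeR adjusted p = 0.09252) were lower in both DEX litters without passing, in a background of 22.5% of all genes. The Pla2g7 subcluster, which held 51.5% of the Gata1 UMIs, was 9.04% and 6.81% of the ILC2-like cells in DEX litters and 14.5% and 9.62% in PBS litters. Within it Gata1 overlapped between the groups (64.8 and 86.1 against 69.7 and 76.7 CPM), and the part of its size in the difference was not tested. Mitf, at 6.16 and 5.79 against 10.4 and 11.3 CPM, passed with no filter on low counts (edgeR adjusted p = 0.03679; up to 0.9999 over 10 alternatives). Spi1 (1.46 ± 0.49, edgeR adjusted p = 0.1796) was not called.

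The largest called falls in ILC2-like cells were those of Pcsk1, Prkg1 and Apol9b, by 2.19, 2.14 and 1.80 on the log2 scale. The largest rises were those of Hbb-bs, Gnaz and Cables1 (4.16, 2.54 and 2.29), and that of Hbb-bs rested on 1 cell, which held 591 of the 609 UMIs in DEX-1, against 12 to 20 UMIs in each other litter. Of the partner lists in these cells, 5 further genes were called. Hes1, like Hey1 a Notch-induced repressor, fell by 0.85 ± 0.08 on the log2 scale (151 and 159 against 298 and 261 TMM-scaled CPM, edgeR adjusted p = 9.695e-05). Of the 7 genes tested in the Notch and HES list, which leaves out Hey1, 1 was called lower and 0 were called higher. The cytokine gene Il4 fell by 0.57 ± 0.10 (edgeR adjusted p = 0.005073), the only call among 10 receptor and granule genes. Rises were called for Irf1 (0.52 ± 0.09), an interferon-induced factor, for Ets1 (0.41 ± 0.09), a lymphoid ETS factor, and for Lmo4 (0.32 ± 0.07), a LIM-domain relative of the bridge between GATA and TAL1 (edgeR adjusted p = 0.008482, 0.02441 and 0.02338). Each was the 1 call of its list, among 9, 13 and 9 genes tested, and no gene of the MITF and C/EBP lists was called among 8 tested in each.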

How the data were processed

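The authors aligned 10x Genomics 5' single-cell reads of pooled fetal lungs to mm10 with Cell Ranger 7 (multi) and deposited 1 matrix of raw UMI counts, with 32285 genes and 4 hashtags in 10648 barcodes. Barcodes with under 200 genes or over 5% mitochondrial UMIs were removed, leaving 10409, and HTODemux (Seurat 5.3.0, positive quantile 0.99) gave 7242 singlets, 731 doublets and 2436 negatives. Doublets within a litter were not removed and no doublet caller was run. Cells were clustered with scanpy 1.11.5 (10000 UMIs per cell, 2000 variable genes, 20 components, 15 neighbours, Leiden resolution 0.5) without 81 genes, the 9 factors, their partner lists, Gata3, Nr3c1, Il1rl1 and sex-linked genes among them. The other receptor and granule genes were not left out. A cluster was named from markers of 15 cell types when at least 3 markers were in 25% of cells, the mean share was at least 30% and the next type reached at most 70% of it. In addition, no other type could have more markers among the 10 leading genes. These limits, and the subclusters of ILC2-like and progenitor-like cells, were set after seeing the data.

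UMI counts were summed by cell state and litter and given as CPM. DEX and PBS litters (2 each) were compared in states with at least 20 cells per litter by the edgeR 4.0.16 quasi-likelihood test (TMM scaling, filterByExpr, R 4.3.3) with Benjamini-Hochberg adjustment over all genes tested, called under 0.05. Genes with a mean of under 5 CPM were left out when litter ranges were compared between states. Shares of cells were also taken after thinning to 2000 UMIs, floors stand for 3 counts, and intervals are exact 95% binomial. Litters of a state are n = 4, and p-values measure the spread between litters pooled from several fetuses. The test was tried first on simulated counts. Alternatives were DESeq2 1.42.0, no filter, a replicate block, a hashtag ratio rule (at least 10 UMIs and 3 times the next hashtag), a 10% mitochondrial limit, a split of cells by markers alone and leaving out each litter. Crossed litter numbers and the ILC2-like cells outside the Pla2g7 subcluster were added after seeing the data.

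The factors and the lists of partners were chosen with earlier results of these data known. Beside them, the text names list genes whose litters do not overlap or that were called, up to 3 called genes of largest rise and of largest fall per state, and the genes most like each factor. Gene positions are from GENCODE M21 (GRCm38), which holds 99.6% of the gene rows. Promoters are from RefSeq (GRCm38.p6). Results for some items are not reported here.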

Additional observations from a re-analysis of the deposited data

Results flagged for a closer look

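In 68 sets of 4 litters with at least 20 UMIs, the gap of the highest or lowest litter to its nearest neighbour was set against the whole range, a measure that chance passes in about 1 of 20 sets. In 3 sets a litter stood apart. Cebpa in progenitor-like cells was at 26.2 CPM in DEX-1 and at 14.0 to 16.1 CPM in the other litters. Irf8 in ILC2-like cells was at 6.16 CPM in DEX-1 and at 2.48 to 2.79 CPM in the others. Irf8 in the Mpo subcluster of the progenitor-like cells was at 325 CPM in PBS-1, where it rested on 9 cells, and at 26.2 to 64.6 CPM in the others.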

How the results depend on the processing

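Of 382 values recomputed under an alternative, 295 kept their direction, side of the threshold and size, 82 moved, 5 passed the threshold where they had not, and none turned its direction. The 295 include 190 levels, most of them from leaving out 1 litter, which could not move by the measure used. Numbers of genes called between DEX and PBS moved most, and the cause was not tested. With DESeq2 there were 6 in mast-like cells, 105 in ILC2-like, 0 in Mrgprb1, 5 in H19, 0 in Cma1 and 2 in progenitor-like cells. Without the filter on low counts there were 144 in mast-like, 26 in basophil-like, 524 in ILC2-like, 52 in Mrgprb1, 114 in H19, 39 in Cma1 and 78 in progenitor-like cells and 24 in the Gzmb Scin cluster. The hashtag ratio rule gave 0 in basophil-like, 0 in H19, 14 in Cma1 and 0 in progenitor-like cells and 3 in the Gzmb Scin cluster. The 10% mitochondrial limit gave 0 in basophil-like, 6 in Mrgprb1, 10 in H19 and 0 in progenitor-like cells and 2 in the Gzmb Scin cluster. Leaving out 1 litter gave 0 to 319 in mast-like, 3 to 32 in basophil-like, 300 to 424 in ILC2-like, 23 to 94 in Mrgprb1, 1 to 169 in H19, 3 to 62 in Cma1 and 44 to 112 in progenitor-like cells and 0 to 44 in the Gzmb Scin cluster; the litter left alone in its group was assumed to vary like the other group.

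The litters share only a number between groups, and deviations of same-numbered litters correlated at -0.14 to 0.14 over the 8 states. A replicate block gave 51 calls in mast-like, 5 in basophil-like, 62 in Mrgprb1, 181 in H19, 19 in Cma1 and 9 in progenitor-like cells. With the numbers crossed, the block gave 32 calls in basophil-like cells.

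Among the factors, calls were gained by Gata1 (-0.60) and Mitf (-0.68) in mast-like cells without DEX-1, by Mitf in the Gzmb Scin cluster without DEX-2 (-0.99) and without the filter (-0.94), and by Mitf in ILC2-like cells without the filter (-0.85). Of 198 levels, 190 moved by less than 1 SD. Leaving out 1 of 4 litters cannot shift their mean by 1 SD, so those values could not fail and show no robustness. Only the split by markers and the hashtag ratio rule could move a level that far. A split of cells by markers alone gave Gata2 at 1102 and Spi1 at 411 CPM in basophil-like cells and Cebpa at 2.60 and Runx1 at 88.6 CPM in mast-like cells. The hashtag ratio rule gave Gata2 at 7.56 CPM in ILC2-like cells, Mitf at 6.08 and Irf8 at 6.67 CPM in progenitor-like cells and Runx1 at 66.8 CPM in mast-like cells. Unthinned shares of cells with a UMI, which rise with depth, were for Gata1 39.5% in mast-like, 38.4% in basophil-like, 84.4% in progenitor-like, 6.34% in ILC2-like and 6.36% in epithelial-like cells, 30.3% in the Pla2g7 subcluster and 3.68% outside it. They were 57.3% and 3.38% for Mitf and 1.18% and 39.5% for Cebpa in mast-like and basophil-like cells, 8.44% and 2.95% for Irf8 in progenitor-like and epithelial-like cells, and 58.0% and 2.51% for Hey1 in ILC2-like and B-like cells. The share of ILC2-like cells with Gata1 was 2.20% when thinned.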

Other observations

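Runx1 was far higher in a small ILC2-like subcluster with Pde7b among its leading genes than in the others, at 1841 and 2492 CPM in the DEX litters and 2418 and 1880 CPM in the PBS litters. The subcluster held 32 cells with a median of 2273.5 UMIs, the lowest of the ILC2-like subclusters, and no Gata1 UMI.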
